A study of Equus caballus with 78 samples.

Results

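MicroRNA miR-22 was read from the small RNA of extracellular vesicles, small membrane particles shed by cells, in plasma and joint fluid of horses. It is listed as eca-miR-22, without an arm, and is 1 of 690 horse microRNA names in the deposited count tables. It was taken by name from every library, was listed in 78 of 78 and had a read in 78 of 78. Of the 270 names with a read anywhere, 10 had a read in every library: miR-22, let-7c, miR-21, miR-26a, miR-92a, miR-103, miR-107a, miR-181a, miR-221 and miR-486-5p.

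MicroRNAs are short RNAs that guide a silencing complex to messenger RNAs with a matching site and lower their translation and stability. The human miR-22 precursor lies in the transcript of a non-coding host gene, MIR22HG. The mouse microRNA has been studied most in heart muscle, where it takes part in hypertrophic growth, and in human osteoarthritic cartilage cells it has been studied as a repressor of PPARA, a regulator of lipid metabolism, and BMP7, a growth factor of cartilage and bone.

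The libraries came from 4 horses, numbered 2, 4, 6 and 8, in a model of osteoarthritis (OA), the degenerative joint disease. Each horse gave plasma, synovial fluid of a joint labelled OA and synovial fluid of a joint labelled CTRL. The 7 time points are 0, 10, 35, 42, 49, 56 and 63, without a unit in the labels. Fluid and time point make 21 groups of 4 horses, or of 3 at time points 10 (no horse 4) and 63 (no horse 2), and 26 libraries per fluid. The sources used here give no breed, age or sex, and no account of how the disease was induced. The OA label also stands on the joint at time point 0, and the CTRL joint belongs to the same animal as the OA joint, so no group comes from an animal outside the model.

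Library totals ran from 2029244 to 12613572 reads, and microRNA reads per library from 3916 to 1865513. In 3 plasma libraries (horse 2 at time point 0, horse 6 at 10 and horse 8 at 63) microRNA was over 5% of the library total. They are called microRNA-rich below, and results that rest on them are given with and without them. As a check of the labels, microRNAs of the mesenchymal list, typical of fibroblast-like cells, took a median of 4.93% of microRNA reads in plasma, 20.4% in the CTRL joint and 21.8% in the OA joint. Those of the erythrocyte list, typical of red blood cells, took 48.9%, 15.3% and 13.1%. In plasma miR-486-5p alone had a median of 367660 per 1000000 microRNA reads, so the erythrocyte share is led by 1 member. With reads summed per horse, miR-16 and miR-25 of the same list were lower in plasma than in CTRL-joint fluid, as given below. The mesenchymal share counts both miR-199a-3p and miR-199b-3p, whose reads the counting may not separate. With reads summed per horse, members of the mesenchymal list went both ways. In plasma against either joint 4 of 12 passed as higher and 3 as lower. The median log2 fold change of the list was 0.73 against CTRL-joint and 1.49 against OA-joint fluid. All 26 plasma libraries were in sequencing lane 1, against 8 of the CTRL-joint and 2 of the OA-joint libraries, so lane and fluid cannot be told apart for most plasma values.

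miR-22 was an abundant microRNA in all 3 fluids, and its share of microRNA reads was steadier in joint fluid than in plasma. Levels are given as CPM, counts per 1000000 microRNA reads of a library. In OA-joint fluid the lowest, median and highest library held 12342, 23506 and 41682 CPM. In CTRL-joint fluid they held 6915, 17962 and 45939.5 CPM. In plasma they held 183, 12996 and 47113 CPM. The highest library thus stood 3.38-fold above the lowest in OA-joint fluid, 6.64-fold in CTRL-joint fluid and 257-fold in plasma. Per 1000000 reads of the spike-in, synthetic RNA added to each sample, the ranges were wider. They ran from 103 to 686 in OA-joint fluid, 86.7 to 1066 in CTRL-joint fluid and 2.94 to 202722 in plasma. The median library gave miR-22 a share of 2.35%, 1.80% and 1.30% of microRNA reads, in the same order. Behind those values stood a median of 1101 miR-22 reads (401 to 1801) in OA-joint fluid, 498.5 (44 to 2947) in CTRL-joint fluid and 172.5 (4 to 55872) in plasma. Because a level is a share of the reads of a fluid, fewer vesicles carrying miR-22 and less miR-22 per vesicle cannot be told apart.

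**Figure D1:**
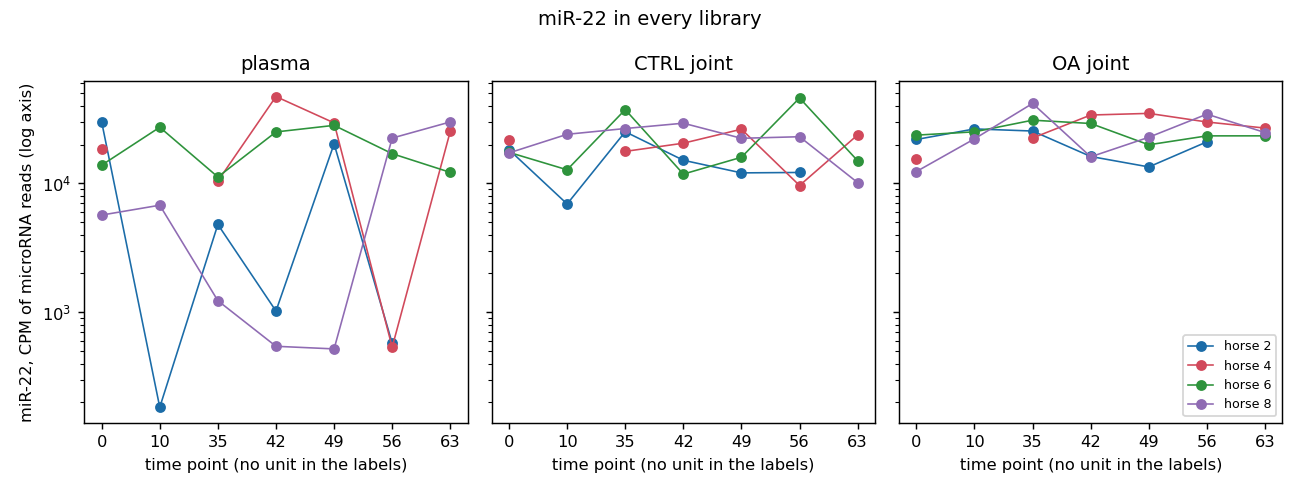
miR-22 level (CPM of microRNA reads, log axis) in each of the 78 libraries by time point, with 1 panel per fluid and 1 line per horse; a line breaks where a library was not analysed. The joint-fluid points stay between 6915 and 45939.5 CPM, while 7 of the 26 plasma points, of horses 2, 4 and 8, lie at or below 1229 CPM.

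The plasma libraries split by size of the value. In 7 of 26 miR-22 was under 1300 CPM, the highest of these at 1229 CPM, and the next library stood at 4796 CPM. The 7 were horse 2 at time points 10 (183 CPM), 42 (1021 CPM) and 56 (575 CPM), horse 4 at 56 (536 CPM), and horse 8 at 35 (1229 CPM), 42 (544 CPM) and 49 (519 CPM). They rested on 4 to 14 miR-22 reads each. The 95% Wilson interval of the lowest ran from 83.9 to 399.5 CPM, and no upper bound among the 7 exceeded 2624 CPM. These intervals cover counting error only and treat reads as independent molecules, which they are not, so they can be too narrow. Whether counting error could reach the next library was not tested. The line at 1300 CPM lies in a gap of the same values, so the split is a description. No plasma library of horse 6 was under that line: its 7 libraries ran from 11204 to 28167 CPM. In joint fluid 24 of 26 CTRL libraries and 26 of 26 OA libraries were over 10000 CPM, against 16 of 26 in plasma.

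Horses, as the animals sampled, differed most in plasma. The mean over a horse's plasma libraries was 9461 CPM in horse 2, 21875 CPM in horse 4, 19232 CPM in horse 6 and 9589 CPM in horse 8. The means in CTRL-joint fluid were 14928, 19892, 22297 and 21801 CPM in the same order of horses. Those in OA-joint fluid were 20721, 27214, 25054 and 24886 CPM. Horse 2 was the lowest of the 4 in all 3 fluids. Within a horse the SD of log2 CPM over its libraries was 0.21 to 0.60 in OA-joint fluid, 0.51 to 0.77 in CTRL-joint fluid and 0.57 to 2.87 in plasma.

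The steadiness of the CPM in joint fluid was set against the other microRNAs that had a read in every library of a fluid. By the SD of log2 CPM over the 26 libraries, miR-22 was the 21st most variable of 22 in OA-joint fluid (SD 0.43) and the 25th of 26 in CTRL-joint fluid (SD 0.62). In plasma it was the 8th of 17 (SD 2.37). These are orders, given without a test: libraries of a horse are not independent, and microRNAs with fewer reads vary more from counting alone.

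**Figure D2:**
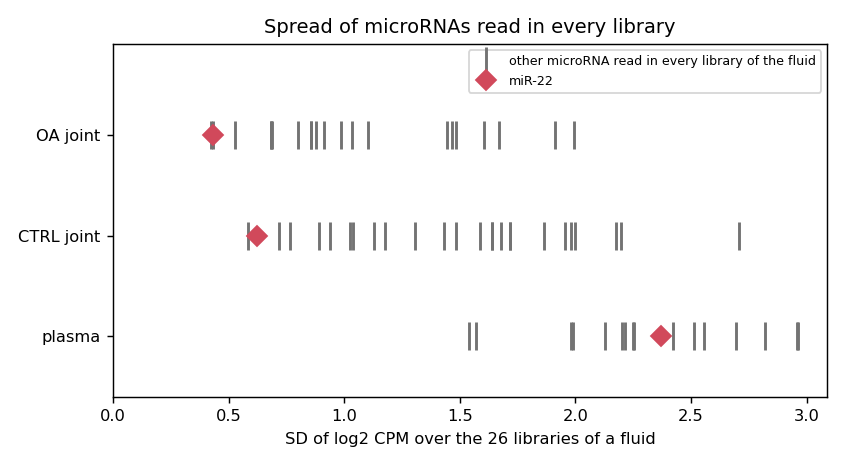
SD of log2 CPM over the 26 libraries of each fluid for every microRNA with a read in all of them (grey ticks) and for miR-22 (red diamond). miR-22 lies near the low end in both joint fluids, at 0.43 and 0.62, and in the middle of the plasma microRNAs, at 2.37.

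By the mean over horses, miR-22 was 9th of the 194 microRNAs with reads in OA-joint fluid, at 24469 ± 2714 CPM (SD, n = 4). It stood between miR-92a, a member of the miR-17-92 cluster, at 27342 ± 5160 CPM, and let-7a, of the let-7 family known for its part in differentiation, at 21027 ± 3188 CPM. In CTRL-joint fluid it was 12th of 188, at 19730 ± 3365 CPM, between miR-16 at 21971 ± 8027 CPM and miR-25 at 19680 ± 4961 CPM (SD, n = 4). In plasma it was 13th of 234, at 15039 ± 6458 CPM, between miR-107a at 15101 ± 3291 CPM and miR-126-5p, from an endothelial gene, at 14544 ± 7663 CPM (SD, n = 4). Except for let-7a in OA-joint fluid, whose mean was further away than its own and the miR-22 SD, each neighbour was closer to miR-22 than the larger of the SDs. The rank within a library ran from 6 to 21 in OA-joint fluid (median 9), from 8 to 29 in CTRL-joint fluid (median 15) and from 3 to 38 in plasma (median 13.5).

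Across plasma libraries miR-22 was high where the erythrocyte list, led by miR-486-5p, took a small share of reads. The erythrocyte list took 2.27% to 78.8% of microRNA reads there, and its share had a Spearman rho of -0.69 with miR-22 CPM (26 libraries of 4 horses, a description without a test). The lowest library, at 183 CPM, had an erythrocyte share of 40.6%, and the highest, at 47113 CPM, had 38.4%, so the order is loose in the middle of the range. Over the 23 plasma libraries that were not microRNA-rich this correlation was -0.59. It was -0.40 in the CTRL joint and -0.09 in the OA joint, where the list took 5.06% to 42.4% and 4.32% to 24.0%. The share and the CPM use the same total, so a high share lowers the CPM of every other microRNA. With the erythrocyte list left out of the total, a denominator chosen after seeing the data, rho in plasma was -0.34 and the highest plasma library still stood 248-fold above the lowest. The members of the list did not go alike. Over the 26 libraries miR-486-5p, with a median of 367660 CPM, had a rho of -0.74 with miR-22, and miR-451 had -0.38. Over the 23 that were not microRNA-rich these were -0.66 and -0.18, and miR-16 had -0.05. The part of red blood cell RNA in the miR-22 level was not tested.

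**Figure D3:**
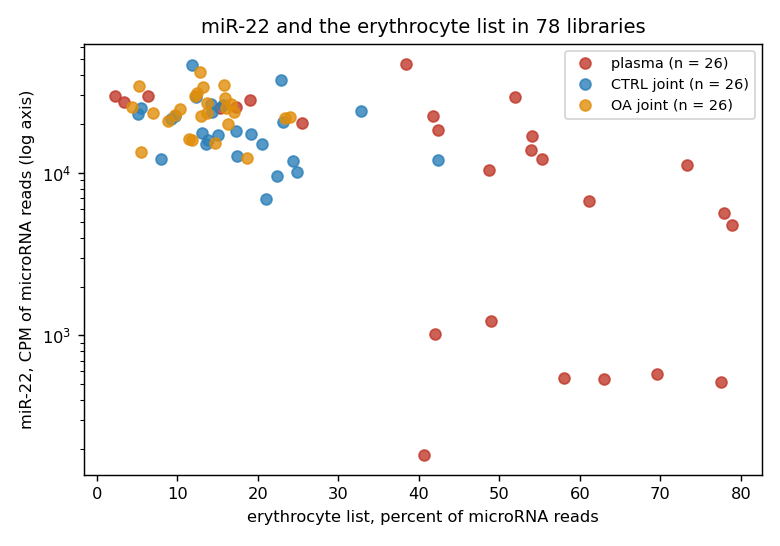
miR-22 level (CPM of microRNA reads, log axis) against the share of microRNA reads taken by the 8 members of the erythrocyte list, for each library, coloured by fluid. Plasma libraries spread over 2.27% to 78.8% with the low miR-22 values all to the right of 40%, while joint-fluid libraries cluster at the left at 6915 CPM or more.

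The microRNAs whose CPM went most closely with miR-22 differed between plasma and joint fluid. Over the 26 plasma libraries, among 40 microRNAs read in at least 75% of them, Spearman rho was 0.66 for miR-103, 0.62 for miR-107a, 0.58 for miR-423-3p, 0.50 for miR-181a and 0.43 for miR-221. Without the microRNA-rich libraries the leading 5 were miR-103 (0.54), miR-107a (0.51), miR-423-3p (0.49), let-7a (0.43) and miR-148a (0.40), so miR-181a and miR-221 were no longer among them. miR-103 and miR-107a are paralogs of nearly the same sequence whose reads the counting may not separate, so they are not independent. The lowest rho in plasma was that of miR-486-5p, abundant in red blood cells, at -0.74, and at -0.66 without the microRNA-rich libraries. Over the 52 joint-fluid libraries, among 50 microRNAs, no rho exceeded that of miR-191a at 0.18, followed by let-7c at 0.17, miR-199a-3p at 0.15, miR-199b-3p at 0.14 and miR-143 at 0.13. miR-199a-3p and miR-199b-3p had the same median there, 48551 CPM, so they too may not be independent. The lowest rho in joint fluid was that of miR-451, the red blood cell microRNA, at -0.38. These values are descriptions: the libraries share 4 horses, and CPM of all microRNAs in a library share 1 total.

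Whether plasma held more or less miR-22 than joint fluid depended on how libraries were weighted. With reads summed per horse, plasma held 25506 ± 2870 CPM, CTRL-joint fluid 19575 ± 3770 CPM and OA-joint fluid 23855 ± 2789 CPM (SD, n = 4). With each library weighted equally on the log2 scale, plasma stood at 12.75 ± 1.32 log2 CPM, below CTRL-joint fluid at 14.14 ± 0.26 and OA-joint fluid at 14.52 ± 0.16 (SD, n = 4). The plasma sums came mostly from few libraries: the 3 microRNA-rich ones held 7788, 16703 and 55872 miR-22 reads, 90.3% of all plasma miR-22 reads. The deepest library gave 61.4% of the plasma microRNA reads of horse 2, 39.7% of those of horse 4, 78.3% of those of horse 6 and 96.2% of those of horse 8. In the microRNA-rich libraries miR-22 stood at 27230.4 to 29950.4 CPM and the erythrocyte share at 2.27% to 6.43%, against medians of 11204 CPM and 51.9% in the other 23. Without them the plasma sum of horse 8 went from 28999 to 4663 CPM, that of horse 2 from 22227 to 9934 CPM and that of horse 6 from 26330.0 to 23076 CPM.

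**Figure D4:**
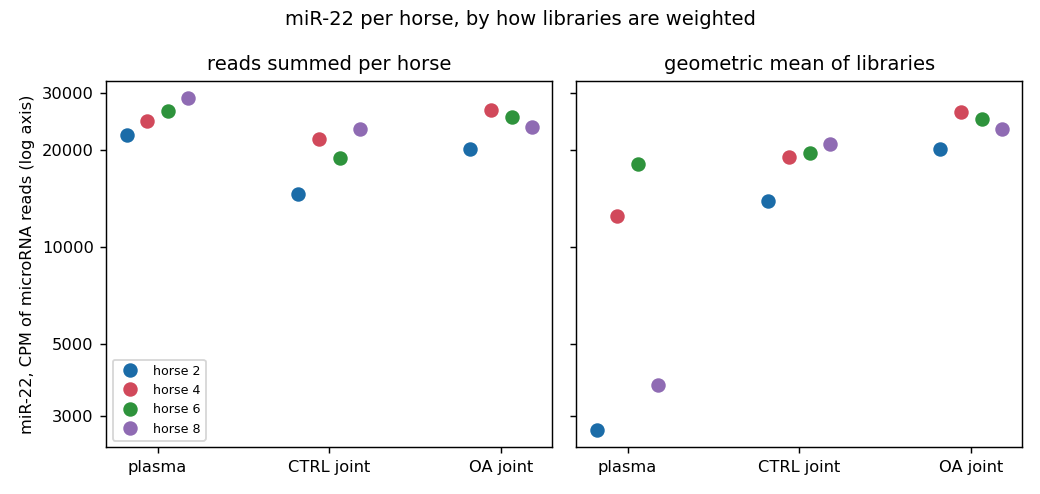
miR-22 per horse (CPM of microRNA reads, log axis) in plasma, CTRL-joint and OA-joint fluid, with reads summed over a horse's libraries (left) and as the geometric mean of its libraries (right); each point is 1 horse. On the left the plasma points lie among those of the joints or above them, and on the right plasma lies below both joints in 4 of 4 horses.

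On the sums, miR-22 did not pass the test in either comparison with plasma. Its log2 fold change in plasma against CTRL-joint fluid was 0.45 (SE 0.31, adjusted p = 0.371, edgeR's quasi-likelihood test over all 126 microRNAs tested, Benjamini-Hochberg adjustment, threshold 0.05). The median over all 126 was -0.16, 21.4% of them passed, and miR-22 was 59th by p. Against OA-joint fluid its log2 fold change was 0.53 (SE 0.24, unadjusted p = 0.0455, adjusted p = 0.147, edgeR). The median over all 126 was 0.11, 24.6% passed, and miR-22 was 39th by p. Without the microRNA-rich libraries the log2 fold changes were 0.05 (SE 0.41, adjusted p = 0.980, edgeR) and -0.35 (SE 0.37, adjusted p = 0.600, edgeR), and 2 of 106 and 22 of 107 microRNAs passed. The first of these counts was also 9 without horse 6 and 8 without horse 8.

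On the equally weighted values plasma was lower, in 4 of 4 horses against either joint. Horses 2, 4, 6 and 8 stood at 11.40, 13.61, 14.14 and 11.87 log2 CPM in plasma, at 13.76, 14.21, 14.25 and 14.35 in the CTRL joint, and at 14.30, 14.68, 14.60 and 14.50 in the OA joint. Plasma and OA-joint fluid did not overlap, while the plasma of horse 6 lay above the CTRL-joint fluid of horse 2. The difference from CTRL-joint fluid was -1.39 log2 (p = 0.0571, adjusted over 3 comparisons 0.0857, two-sided exact permutation test). That from OA-joint fluid was -1.77 log2 (p = 0.0286, the smallest the 70 arrangements can give, adjusted 0.0857, two-sided exact permutation test). Neither passed after adjustment. Over 3 comparisons, one at the smallest p can only pass if another reaches that p too. The adjusted result could therefore not decide for OA-joint fluid alone. With the erythrocyte list left out of the total the differences were -0.70 and -1.004 log2, lower in 3 of 4 horses against each joint (adjusted p = 0.343 for both, exact permutation test). With the median in place of the mean over a horse's libraries plasma was lower than CTRL-joint fluid in 2 of 4 horses, at -1.12 log2 (adjusted p = 0.314, exact permutation test). In limma, fitted over all microRNAs on the same values per horse, both passed, at -1.39 log2 (SE 0.50, adjusted p = 0.0282) and -1.77 log2 (SE 0.53, adjusted p = 0.0140), where 28.6% and 30.2% of microRNAs passed. Per spike-in read, the synthetic RNA added to each sample, the differences were -0.91 and -1.14 log2 (adjusted p = 0.257 for both, exact permutation test), and plasma was lower in 3 of 4 horses against each joint. In lane 1 alone the difference from CTRL-joint fluid was -0.88 log2 (4 plasma against 3 CTRL-joint horses, p = 0.400, exact permutation test), and only 1 horse had OA-joint libraries in that lane.

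In joint fluid the share of miR-22 was higher in the OA joint than in the CTRL joint of the same horse at most later time points, but the difference did not pass a test. After time point 0, it was higher in the OA joint in 18 of 22 pairs, with a median log2 ratio of 0.38, against 2 of 4 pairs at time point 0. The 18 were 5 of 5 pairs in horse 2, 5 of 5 in horse 4, 4 of 6 in horse 6 and 4 of 6 in horse 8. Where both libraries were in the same lane it was 14 of 17. As a mean over horses after time point 0, the OA joint stood at 14.59 ± 0.23 and the CTRL joint at 14.13 ± 0.31 log2 CPM (SD, n = 4). The difference was 0.46 log2, higher in 4 of 4 horses (p = 0.0857, adjusted 0.0857, two-sided exact permutation test). On reads summed per horse edgeR gave a log2 fold change of 0.33 (SE 0.24, adjusted p = 0.855), 26th by p of 117 microRNAs.

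In that edgeR test 0% of the 117 microRNAs passed, 10 had an unadjusted p under 0.05, DESeq2 called 4 and the edgeR fit with the horse as a block called 3. miR-22 was in none of those calls, and the median log2 fold change of all 117 was -0.03. With other denominators the pairs were more even. Per spike-in read, miR-22 was higher in the OA joint in 11 of 22 later pairs, and per read of the library total in 13 of 22. The mean difference was 0.29 log2 per spike-in read, higher in 3 of 4 horses (adjusted p = 0.343, exact permutation test). Per read of the library total it was 0.45 log2, close to the value on CPM and higher in 4 of 4 horses (adjusted p = 0.129, exact permutation test). On reads summed per horse with that denominator edgeR gave only 0.05 log2 (SE 0.32, adjusted p = 0.946). The pair of horse 8 at time point 63 had a 27.2-fold ratio per library total, with 44 miR-22 reads in its CTRL library. Of the 7 tested members of the erythrocyte list none passed in edgeR. Their median log2 fold change in the OA joint was -1.22, while miR-486-5p and miR-144 had 0.02 and 0.04. With the erythrocyte list left out of the total the miR-22 difference was 0.36 log2 (adjusted p = 0.343, exact permutation test), higher in 4 of 4 horses.

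**Figure D5:**
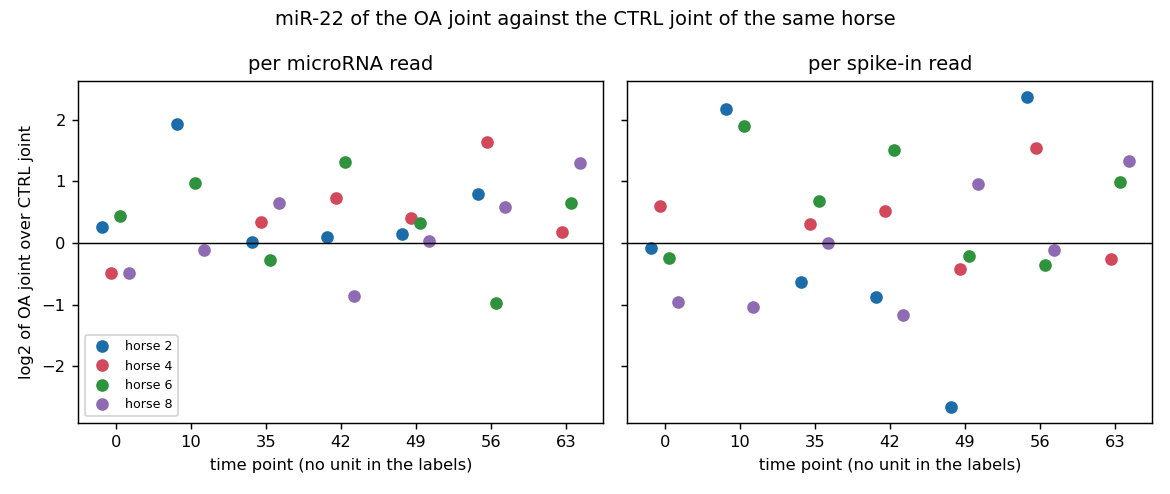
log2 ratio of miR-22 in the OA joint over the CTRL joint of the same horse and time point, per microRNA read (left) and per spike-in read (right); each point is 1 pair and the line marks equal levels. After time point 0, 18 of 22 points lie above the line on the left and 11 of 22 on the right.

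At time point 0 the joints overlapped. The OA joints of horses 2, 4, 6 and 8 held 21887, 15312, 23656 and 12342 CPM. Their CTRL joints held 18228, 21500.0, 17391 and 17221 CPM, a narrower range. The OA joint was higher in horses 2 and 6 and lower in horses 4 and 8 (edgeR log2 fold change -0.09, SE 0.68, adjusted p = 1.00).

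At time point 10 the OA joints of horses 2, 6 and 8 held 26432, 25093 and 22138 CPM. Their CTRL joints held 6915, 12737 and 24009 CPM. The lowest CTRL-joint library of all is among them, and only horse 8 had the higher value in the CTRL joint. The edgeR log2 fold change was 0.87, the largest of the 7 time points, with an SE of 0.79 and an adjusted p of 0.897.

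At time point 35 the OA joints of horses 2, 4, 6 and 8 held 25456, 22467, 30897 and 41682 CPM, the highest mean of all 21 groups. Their CTRL joints held 25126, 17696, 37319 and 26622 CPM, the highest mean of that joint. Both joints were thus high together and overlapped (edgeR log2 fold change 0.10, SE 0.68, adjusted p = 1.00). At time point 42 the OA joints held 16157, 33878, 29125 and 16061 CPM in the same order of horses. The CTRL joints held 15103, 20482, 11795 and 29276 CPM. Horse 6 had the larger excess in the OA joint and horse 8 the reverse (edgeR log2 fold change 0.20, SE 0.68, adjusted p = 1.00).

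At time point 49 the OA joints of horses 2, 4, 6 and 8 held 13405, 34888, 19904 and 22777 CPM. Their CTRL joints held 12052, 26304, 15935 and 22355 CPM. The OA joint was higher in 4 of 4 horses, yet the ranges overlapped, since horse 2 was low and horse 4 high in both joints (edgeR log2 fold change 0.03, SE 0.68, adjusted p = 1.00). At time point 56 the OA joints held 20989, 29913, 23348 and 34421 CPM. The CTRL joints held 12143, 9619, 45939.5 and 22991 CPM. The CTRL joint of horse 6 is the highest joint-fluid library of all, and without horse 6 the edgeR log2 fold change went from -0.09 (SE 0.68, adjusted p = 1.00) to 0.82 (adjusted p = 0.911). At time point 63 the OA joints of horses 4, 6 and 8 held 26828, 23355 and 24779 CPM. Their CTRL joints held 23755, 14966 and 10134 CPM. Here the OA joint was higher in 3 of 3 horses with an overlap of the ranges (edgeR log2 fold change 0.70, SE 0.79, adjusted p = 1.00).

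By time point, edgeR called 0% of 139 microRNAs between the joints, except at time point 35, where 0.719% passed, a single microRNA, miR-126-5p. Its log2 fold change was 9.355 (SE 2.38, adjusted p = 0.0229, edgeR), and no microRNA passed there when any 1 horse was left out. Unadjusted p-values under 0.05 numbered 23, 8, 23, 21, 24, 13 and 3 from time point 0 to 63, and DESeq2 called 16, 15, 19, 20, 15, 19 and 8. miR-22 was never among the calls of either tool.

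No change of miR-22 over time passed in any fluid. In the OA joint it was higher than at time point 0 in 3 of 3 horses at 10 (median log2 change 0.27), in 4 of 4 at 35 (0.47), in 3 of 4 at 42 (0.34), in 2 of 4 at 49 and at 56, and in 2 of 3 at 63. In the CTRL joint it was higher in 1 of 3, 3 of 4 (median 0.55), 1 of 4, 2 of 4, 2 of 4 and 1 of 3 horses. The F-test over the 6 later time points gave an adjusted p of 1.00 in the OA joint and of 0.848 in the CTRL joint (edgeR). There 0% of 139 microRNAs passed in either joint, with 45 and 46 unadjusted p-values under 0.05. DESeq2 called 0 and 2, and the edgeR fit with the horse as a block called 0 and 9, miR-22 not among them. The change over time did not differ detectably between the joints (edgeR adjusted p = 1.00). In that test 0.719% of microRNAs passed, a single one, miR-8993, chosen for mention only because it was the sole call. With the horse as a block 2 passed.

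In plasma miR-22 at time point 0 stood at 29950.4, 18416, 13832 and 5672 CPM in horses 2, 4, 6 and 8. At time point 10 horses 2, 6 and 8 held 183, 27230.4 and 6765 CPM. At time point 35 horses 2, 4, 6 and 8 held 4796, 10409, 11204 and 1229 CPM, the lowest mean of the 21 groups. Each of the 4 horses was lower at 35 than at 0, with a median log2 change of -1.52, while in the OA joint each was higher at that time. At time point 42 the plasma of horses 2, 4, 6 and 8 held 1021, 47113, 25045 and 544 CPM. At 49 it held 20242, 29432, 28167 and 519 CPM. Horse 8 was low from 35 to 49, and horse 2 alternated between low and high. At time point 56 the plasma held 575, 536, 16986 and 22443 CPM, and at 63 horses 4, 6 and 8 held 25343, 12161 and 29950 CPM. The F-test over time gave an adjusted p of 0.996 (edgeR), and 10.9% of 92 microRNAs passed, or 0 of them with the horse as a block.

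Single contrasts with time point 0 were no different: 0 of 6 passed for miR-22 in each fluid, with edgeR's smallest adjusted p at 0.713 in the OA joint, 0.602 in the CTRL joint and 0.919 in plasma. Ordered by mean, the 21 groups ran from OA-joint fluid at 35 (30126 ± 8458 CPM, SD, n = 4) and at 56 (27168 ± 6135 CPM, SD, n = 4) and CTRL-joint fluid at 35 (26691 ± 8090 CPM, SD, n = 4) down to plasma at 10 (11393 ± 14105 CPM, SD, n = 3), 56 (10135 ± 11284 CPM, SD, n = 4) and 35 (6909 ± 4741 CPM, SD, n = 4). All 20 pairs of neighbours in that order overlapped and lay closer than the smaller of their SDs. The first and the last did not overlap, at 22467 CPM or more against 11204 CPM or less. They are the extremes of an order made from the same values, so this is a description only.

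The members of the 6 lists were counted beside the 21.4% and 24.6% of all microRNAs that passed in the plasma comparisons. The calls against CTRL-joint fluid rest on few libraries: without the microRNA-rich ones 2 of 106 microRNAs passed in all, and in lane 1 alone 1 of 123. In plasma against CTRL-joint fluid 2 of 6 tested members of the erythrocyte list passed as lower, miR-16 and miR-25, while miR-486-5p had a log2 fold change of 1.21 (SE 0.60, adjusted p = 0.212, edgeR). Further, 4 of 7 of the platelet list passed as higher: miR-126-3p, miR-126-5p, miR-221 and miR-222. In the myeloid leukocyte list 1 of 6 passed as lower, miR-146b-5p. Of the mesenchymal list 4 of 12 were higher: miR-125b-5p (log2 fold change 2.55), miR-100 (1.98), miR-143 (1.44) and miR-99a (1.41). These 4 also passed as higher against OA-joint fluid. Another 3 were lower, among them miR-10b, from a HOX cluster, at a log2 fold change of -4.02 (SE 0.57, adjusted p = 0.000927, edgeR). Also lower in both plasma comparisons were miR-199a-3p and miR-199b-3p, each at -2.23 here. The counting may not separate their reads, so they may be 1 signal. Of the list of microRNAs studied in osteoarthritic joints 3 of 12 passed as higher: miR-21, miR-27a and miR-29a. In plasma against OA-joint fluid 0 of 7 of the erythrocyte list passed, 4 of 7 of the platelet list as higher, 1 of 5 of the myeloid list as lower, 4 higher and 3 lower of 12 of the mesenchymal list, and 4 of 11 of the osteoarthritis list as higher. The clearest of those 4 was miR-29a, which represses collagen messages, at 3.39 (SE 0.27, adjusted p = 1.16e-05, edgeR). Without the microRNA-rich libraries 22 of 107 microRNAs passed against OA-joint fluid, and list members were not counted again. In those libraries the platelet list took 20.7% to 23.5% of microRNA reads and the osteoarthritis list 27.9% to 30.4%. In the other 23 the medians were 5.03% and 6.70% (highest 21.0% and 27.7%), against 5.38% and 8.10% in OA-joint fluid. Muscle microRNAs were nearly absent: 3 of 7 had any read, and the median share was 0% in each fluid. Between the joints after time point 0 no member of any of the 6 lists passed in edgeR. With the library total as library size the calls in the plasma comparisons shifted upward, to 18 higher and 2 lower against CTRL-joint fluid (13 and 14 otherwise) and to 22 higher and 3 lower against OA-joint fluid (19 and 12 otherwise). In limma on the equally weighted values they shifted downward, to 7 higher and 29 lower and to 4 higher and 34 lower.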

How the data were processed

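The libraries were made from total RNA with the TriLink CleanTag kit, per the labels' protocols. The submitters' processing notes name the build EquCab3.0 and the tools Bowtie, cutadapt and edgeR. They state no version or setting, nor how reads of near-identical microRNAs were assigned. The authors deposited whole-number read counts per microRNA and per UniSp spike-in, and a column of RPM of the library total, also deposited by the authors, from which library totals were recovered. Spike-ins served only as another denominator.

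Counts of all horse microRNAs were tested with edgeR 4.0.16 in R 4.3.3 (quasi-likelihood F-test with TMM factors after filterByExpr at a minimum count of 10, Benjamini-Hochberg adjustment over all features tested, threshold 0.05), and only miR-22 and listed microRNAs are printed. Comparisons of fluids, and of joints after time point 0, set 4 sums of counts per horse against 4. Single time points and changes over time used 1 fit of 52 synovial libraries in 14 groups, or of 26 plasma libraries in 7. Single values per horse (mean log2 CPM, prior count 2) were compared by exact permutation in Python 3.11.15 with numpy 2.4.6. Figures were drawn with matplotlib 3.10.9. DESeq2 1.42.0, limma 3.58.1, other scalings, filters, denominators, lanes (from the names of the deposited files) and leaving out each horse were alternatives. The fits were tested on simulated data.

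The horses are the replicates, and they pair the fluids, since the labels give the same animals. Deviations of the OA and CTRL libraries of the same horse and time point from their group means had a mean correlation of 0.05 over 65 microRNAs (over 0.1 in 13 of 26 pairs), against -0.02 for different horses. Taking deviations from group means ties both values together, so the value for different horses is not a separate reference. None of the 108 pairs of libraries within groups were the same within sampling noise. Nothing says whether the libraries of a horse came from separate extractions.

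Besides miR-22, the named microRNAs were its neighbours in mean CPM and the 5 with the highest Spearman rho with it in plasma and in joint fluid. The latter had to be read in at least 75% of those libraries. Listed members past the threshold were named for plasma against CTRL-joint fluid, and only in part for the other comparisons. MicroRNAs of the same seed were not looked up. The member, the lists and the tests were chosen with earlier results of these data known.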

Additional observations from a re-analysis of the deposited data

How the results depend on the processing

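Of 125 alternatives to the 10 fold changes of miR-22, 103 kept the sign and 22 reversed it. The 44 alternatives to the 4 F-tests over time, which have no direction, did not pass. The 40 alternatives to the 3 permutation tests kept the sign, but for 16 of them the smallest possible p was over 0.05. Leaving out a horse cannot go below p = 0.1, exact sign flips within horses below 0.125 and lane 1 alone against the OA joint below 0.2. Lane 1 alone against the CTRL joint, adjusted together with that comparison, could not have passed either. Of the fold changes 2 passed, both from limma on the mean log2 CPM of each horse, which gave -1.39 (plasma against CTRL joint) and -1.77 (plasma against OA joint) where the sums gave 0.45 and 0.53. Plasma against OA joint also turned to -0.35 without the microRNA-rich libraries. The sums and the means weight libraries differently by construction. With the library total as library size the plasma values were 2.16 and 2.11 (edgeR adjusted p = 0.0761 and 0.0747), and with RLE scaling plasma against CTRL joint was 0.66. OA against CTRL joint after time point 0 stayed positive, from 0.05 to 0.46, in its 12 alternatives. At single time points the sign held in the 12 alternatives each at 10 (0.02 to 1.34), 42 (0.11 to 0.77) and 63 (0.26 to 1.07); it reversed at the other 4, and the cause was not tested. At time point 0 it reversed with the library total (0.21), with only the groups compared (0.13) and within the range without 1 horse (-0.33 to 0.41). At 35 it reversed without a filter (-0.13), with the library total (-0.19), with only the groups compared (-0.00077) and without 1 horse (-0.13 to 0.34). At 49 it reversed without a filter (-0.0755), with the library total (-0.58) and with lane as a covariate (-0.0189). At 56 it reversed with RLE (0.19), no scaling (0.26), DESeq2 (0.19), no filter (0.0346), the library total (0.58), only the groups compared (0.36) and without 1 horse (-0.16 to 0.82). With a replicate block for the horse, the paired fit, miR-22 gave 0.45 (plasma against CTRL joint), 0.54 (plasma against OA joint) and 0.35 (OA against CTRL joint after time point 0), with adjusted p of 0.520, 0.430 and 0.870 in edgeR, and the block changed no call of miR-22. Counts of called microRNAs varied more: 0 to 38 for plasma against CTRL joint, 0 to 44 for plasma against OA joint, 0 to 5 between joints after time point 0, 0 to 35 over time in plasma, 0 to 9 in the CTRL joint, 0 to 46 in the OA joint (46 without a filter) and 0 to 3 for the difference in change. Of the plasma values, 7 rest on 4 to 14 reads.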
